A study of Homo sapiens with 12 samples.

Results

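The enzymes that build sugar chains on proteins and lipids, together with the glypican and syndecan core proteins that carry heparan sulfate, were followed across 4 HEK293T lines with different EZH2 alleles. The members were chosen by symbol, as the genes named after these enzyme and core protein families, and 108 of the 14438 genes in the count table carried such a symbol. The rule read symbols and no measured value, but it was set with earlier results of these data known. The counts below are therefore not those of a set chosen blind to the values. Of these members, 107 were among the 14263 genes tested. HS3ST6, a heparan sulfate 3-O-sulfotransferase, was left out because it had 0 counts in all replicates of 2 lines.

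Mucin-type O-glycans start when a polypeptide N-acetylgalactosaminyltransferase of the GALNT family attaches N-acetylgalactosamine to serine or threonine, and other enzymes then extend and cap this sugar. N-glycans are branched by the MGAT enzymes, and both kinds of chain are finished with galactose, fucose or sialic acid. Proteoglycans carry long sulfated chains on a xylose-based linker; heparan sulfate is polymerized by the EXT enzymes and then sulfated, while chondroitin and dermatan sulfate are built and modified by a separate set of enzymes. These chains set how cell surfaces bind growth factors, lectins and matrix. EZH2 is the methyltransferase of polycomb repressive complex 2 that trimethylates lysine 27 of histone H3, a mark of repressed genes found mostly at CpG-rich promoters.

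HEK293T is a line derived from human embryonic kidney cells. Each of the 4 lines carried a lentiviral EZH2 transgene: wild type (EZH2 WT, the reference here), the gain-of-function (GOF) substitution EZH2 Y641F, the GOF substitution EZH2 A677G, or the loss-of-function (LOF) double substitution EZH2 H689A/F667I. mRNA was sequenced in 3 replicates of each line, 12 libraries in all. All 4 lines went through the same blasticidin selection and kept their endogenous EZH2, and each allele was represented by 1 selected population, so that the allele and the line cannot be told apart. The p-values measure the spread between replicates of 1 line. The 3 comparisons with WT share the same 3 WT libraries. For a gene shifted in all 3 mutant lines, a change in WT cannot be told apart from 1 in the mutants. In what follows the lines are called WT, Y641F, A677G and LOF. The question followed here was which of the glycan genes had altered transcript levels with each class of EZH2 allele.

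Libraries held 32137700 to 44562413 counts, of which the members took 0.318% to 0.334%. EZH2 transcripts, from the transgene and the endogenous gene together, averaged 158 ± 4.32 CPM (counts scaled to library size by TMM factors; SD, n = 3) in WT, 218 ± 9.61 in Y641F, 173 ± 8.57 in A677G and 208 ± 2.03 in the LOF line. Gene counts do not show which allele was expressed. Of 8 markers of HEK293T, 7 were tested, and their summed level was 846 to 860 CPM in WT, 703 to 754 in Y641F, 688 to 712 in A677G and 780 to 799 in the LOF line. Markers of blood cells reached at most 1.30 CPM in sum, with PTPRC not among the genes tested. Markers of fibroblasts (4 of 6 tested, with COL1A2 and DCN not among them) summed to 14.004 to 15.3 CPM in WT, 17.4 to 27.01 in Y641F, 15.4 to 17.5 in A677G and 15.3 to 18.8 in the LOF line. Every Y641F and A677G library lay above every WT library. Those of kidney tubule, CUBN and LRP2 of 5 listed, summed to 22.4 to 25.96 CPM in WT, 16.9 to 22.9 in Y641F, 17.4 to 19.7 in A677G and 22.8 to 28.2 in the LOF line, with A677G below WT. Of the 3 hepatocyte markers, 0 were tested. The part of these shifts in the results was not tested. Low counts were more often even than odd: 68.8% of the counts were even in genes averaging under 20 counts, against 50.4% in genes averaging over 1000, and the step behind this is not given in the sources used here.

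In both GOF lines more glycan genes were called lower than higher against WT, as was so over all genes. In Y641F, 22 of 107 members were lower (20.6%) and 4 higher (3.74%) at an adjusted p under 0.05. Of all genes tested, 5.59% were lower and 2.09% higher. In A677G, 26 members were lower (24.3%) and 6 higher (5.61%), against 6.48% and 2.07% of all genes. Lower calls made up 84.6% of the member calls and 72.8% of all calls in Y641F. In A677G they made up 81.25% and 75.8%. The LOF line moved little: 2 members were lower, ST6GAL2 and DSEL, and 0 were higher, against 0.161% and 0.14% of all genes. At an unadjusted p under 0.05, 9 members were lower and 6 higher in the LOF line. Both DESeq2 and edgeR's exact test called 1 member higher, where they called 30 and 31 of the 14263 genes higher. The median log2 fold change over the members was -0.09 in Y641F, -0.10 in A677G and -0.01 in the LOF line, and the median over all genes tested was 0.00 in each of the 3 comparisons. In bulk RNA, less RNA per cell and fewer cells with the transcript cannot be told apart.

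The counts in both GOF lines depended on single libraries. In Y641F, 17 members were lower without WT replicate 1, WT replicate 2 or Y641F replicate 2. In A677G, 17 members were lower without WT replicate 2, and 3 were higher without WT replicate 1 or A677G replicate 1. In the LOF line, the count of lower members fell to 0 without WT replicate 1, WT replicate 2, LOF replicate 1 or LOF replicate 3, and to 1 without WT replicate 3 or LOF replicate 2.

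The GOF and LOF lines were also compared directly, a contrast in which the WT libraries enter through the shared fit and dispersion. Against the LOF line, the mean of the GOF lines was lower for 27 members and higher for 5, against 8.75% and 3.81% of all genes, and the median log2 fold change was -0.05 over the members and 0.00 over all genes. Without LOF replicate 1 or replicate 2, 2 members were higher, without A677G replicate 2, 3 were, and without WT replicate 3, 6 were. Between Y641F and A677G, 0 members were lower and 0 higher, against 0.014% and 0.0701% of all genes. At an unadjusted p under 0.05, 6 members were lower and 2 higher in Y641F than in A677G, and DESeq2 and the exact test also called 0.

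**Figure D1:**
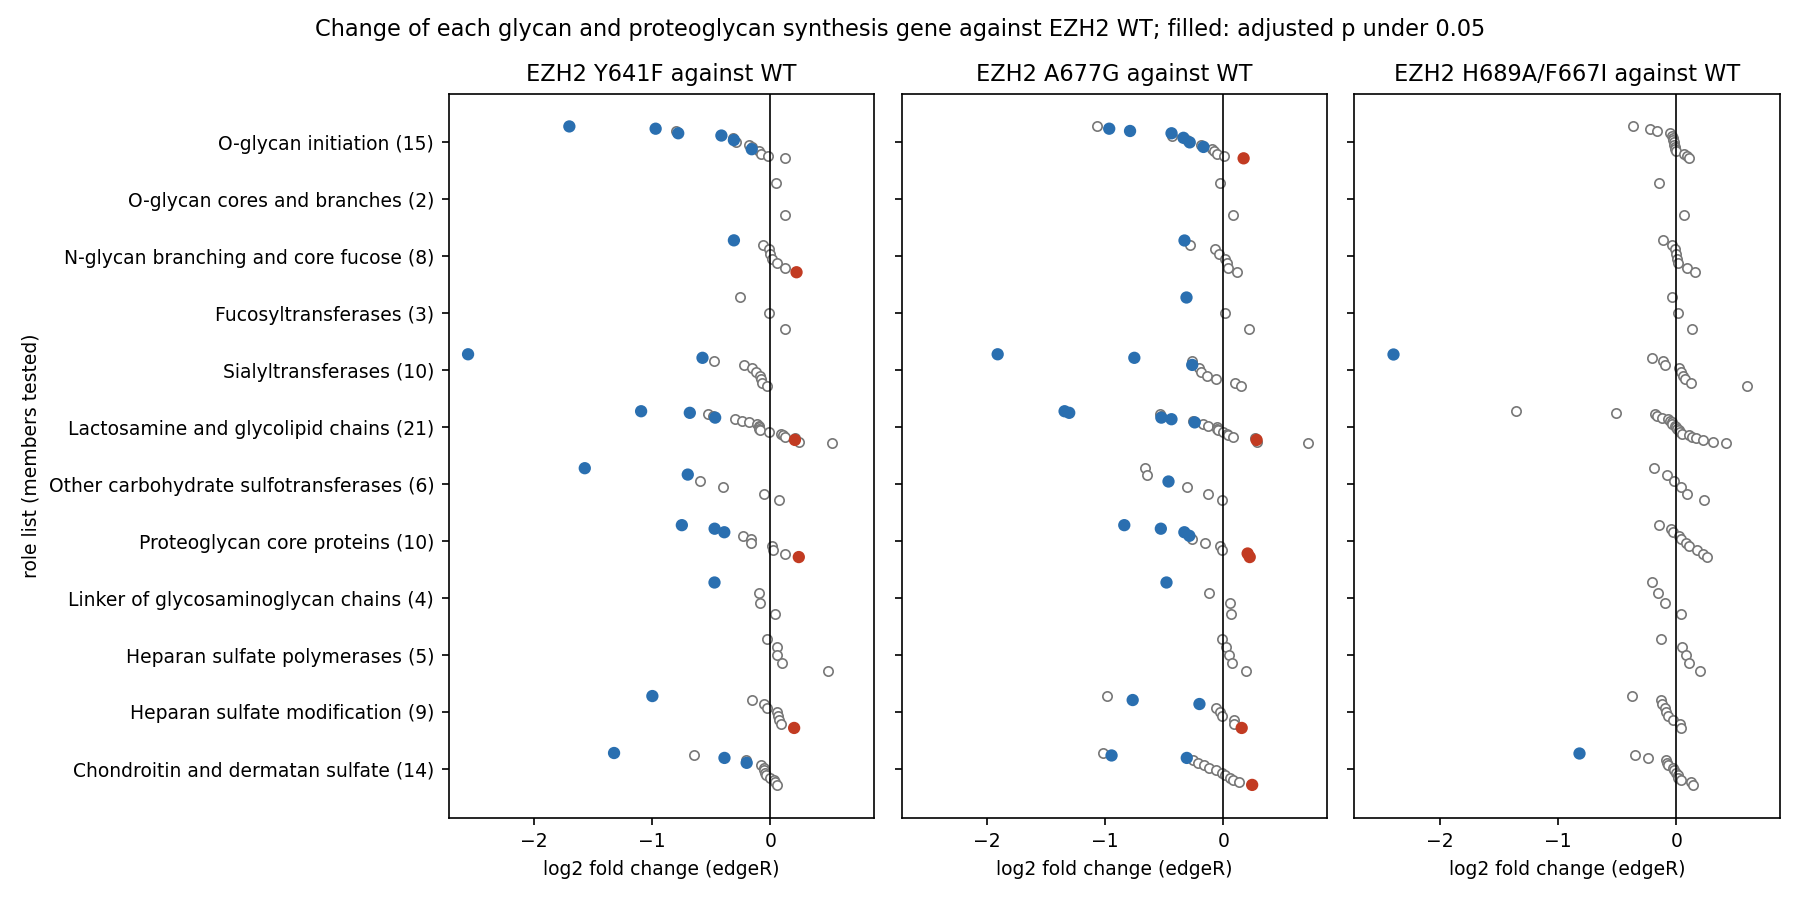
Log2 fold change of each of the 107 members tested against WT (horizontal axis) in Y641F, A677G and the LOF line, with 1 row of points per role and the number of members in brackets. Blue points were lower and red points higher at an adjusted p under 0.05, and open points did not pass. Filled points lie mostly to the left of 0 in both GOF panels, and the LOF panel has 2.

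The GALNT transferases, which start mucin-type O-glycans, were the role with the most lower members by number, among lists of 2 to 21 genes. Of 15 tested, 6 were lower in Y641F (5.59% over all genes) and 6 lower (6.48%) and 1 higher (2.07%) in A677G. The GOF mean was lower than the LOF line for 7 of them (8.75% over all genes) and higher for 0 (3.81%). At an unadjusted p and by DESeq2, 0 were higher as well. The median log2 fold change of this list was -0.29 in Y641F, -0.28 in A677G and -0.02 in the LOF line. That of the 6 other carbohydrate sulfotransferases was lower in the GOF lines, at -0.50 in Y641F and -0.39 in A677G. GALNT14, which lies at chr2:30910467-31155202 of GRCh38 on the minus strand, gave 8.52, 8.23 and 8.598 CPM in WT, 4.87, 4.12 and 3.93 in Y641F, 4.91, 4.03 and 4.004 in A677G and 7.52, 7.51 and 6.703 in the LOF line. All 6 GOF libraries were below all 6 others. Its log2 fold change was -0.97 ± 0.13 (SE) in Y641F (adjusted p = 1.02e-06), -0.96 ± 0.13 in A677G (adjusted p = 1.04e-06) and -0.22 ± 0.12 in the LOF line (adjusted p = 0.668). Against the LOF line the GOF mean was 40.5% lower (log2 -0.75 ± 0.11, adjusted p = 3.51e-06), and these calls held without any single library.

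The promoter windows of 6 members are shown to let their CG content be compared, since the members that moved together differ in it. Each window is the 300 bases from 250 before to 50 after a RefSeq start site, read 5′ to 3′ on the gene's strand (GRCh38.p14), and capitals mark every CG dinucleotide, which reads the same on both strands. The window of GALNT14 (chr2:31138391-31138690, minus strand, the one with more CG of 2 listed) held 35 CG, a number reached by 16.5% of all promoters in the RefSeq table.
GALNT14: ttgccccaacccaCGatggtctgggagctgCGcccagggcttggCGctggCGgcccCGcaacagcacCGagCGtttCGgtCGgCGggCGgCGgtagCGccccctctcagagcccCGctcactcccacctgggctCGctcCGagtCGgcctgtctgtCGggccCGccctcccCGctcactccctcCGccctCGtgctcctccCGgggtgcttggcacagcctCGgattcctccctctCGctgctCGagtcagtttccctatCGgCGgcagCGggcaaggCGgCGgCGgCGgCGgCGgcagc

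GALNT3, the transferase that protects FGF23 from cleavage by glycosylating it, gave 4.33, 5.203 and 5.19 CPM in WT, 3.899, 1.79 and 2.84 in Y641F, 2.38, 3.12 and 3.04 in A677G and 4.76, 5.09 and 4.62 in the LOF line. All GOF libraries were below all others, with Y641F replicate 1 the closest to them. The log2 fold change was -0.78 ± 0.18 in Y641F (adjusted p = 0.00461), -0.79 ± 0.18 in A677G (adjusted p = 0.00366) and -0.76 ± 0.16 for the GOF mean against the LOF line (adjusted p = 0.00059). Without Y641F replicate 2 the first of these did not pass (adjusted p = 0.0566). In the LOF line it was -0.02 ± 0.18, with a 95% interval of -0.38 to 0.34.

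GALNT5 was sparsely counted, with 29, 35 and 37 counts in WT, 17, 6 and 12 in Y641F, 28, 4 and 22 in A677G and 24, 38 and 38 in the LOF line. The Y641F libraries lay below all WT libraries, while the A677G libraries spread over a wide range. It was lower in Y641F (log2 -1.70 ± 0.44, adjusted p = 0.00964), a call that ended without Y641F replicate 2 (adjusted p = 0.0593). In A677G the log2 fold change was -1.07 ± 0.41 (adjusted p = 0.105), and edgeR's exact test called it lower. The mean of the GOF lines was lower than the LOF line (log2 -1.38 ± 0.35, adjusted p = 0.00623), except without LOF replicate 3 (adjusted p = 0.0651).

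The other transferases called lower changed less. GALNT18, GALNT10 and GALNT2 were lower in Y641F by -0.41, -0.31 and -0.16 on the log2 scale, and in A677G by -0.44, -0.34 and -0.17. GALNT13 was lower in A677G (-0.28, adjusted p = 0.00447) and was at -0.19 in Y641F (adjusted p = 0.0916). These stood in the LOF line at -0.0034 (GALNT18), -0.02 (GALNT10), -0.01 (GALNT2) and -0.02 (GALNT13); these 4 genes were named after their values were seen. GALNT11 was called higher in A677G (log2 0.17 ± 0.04, adjusted p = 0.00644). In Y641F it was at 0.13 ± 0.04 (adjusted p = 0.0652), which passed with DESeq2 (adjusted p = 0.039) and without WT replicate 2 (adjusted p = 0.0377). Its mean level was 75.3 ± 3.65 CPM in WT and 84.8 ± 1.19 in A677G (SD, n = 3), and the A677G call ended without WT replicate 1 (adjusted p = 0.0891). GALNT1 had the highest level per length of the list, 44.3 CPM per kilobase of exon over all libraries, and was at -0.02 in Y641F and 0.01 in A677G. GALNT14 had 1.95 CPM per kilobase in WT. The core and branching enzymes GCNT1 and GCNT2, which extend these glycans, had log2 fold changes of 0.05 and 0.12 in Y641F and 0.09 and -0.03 in A677G. Neither passed, also at an unadjusted p under 0.05.

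The proteoglycan core proteins moved in both directions. Of 10 tested, 3 were lower (5.59% over all genes) and 1 higher (2.09%) in Y641F, and 4 were lower (6.48%) and 2 higher (2.07%) in A677G. Against the LOF line the GOF mean was lower for 5 (8.75% over all genes) and higher for 1 (3.81%). Glypicans are anchored to the membrane by a lipid and hold heparan sulfate near the cell surface, where they modulate growth factor and morphogen signalling, while syndecans span the membrane. Of the glypicans, GPC5, GPC4 and GPC1 fell and GPC3 and GPC6 rose.

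GPC5 gave 3.06, 5.15 and 3.77 CPM in WT, 2.52, 2.52 and 2.104 in Y641F, 2.24, 2.02 and 2.47 in A677G and 4.36, 4.66 and 4.53 in the LOF line. The GOF libraries did not overlap with those of either other line, and WT replicate 2 stood above its replicates. On the log2 scale the change was -0.75 ± 0.18 in Y641F (adjusted p = 0.00574) and -0.84 ± 0.18 in A677G (adjusted p = 0.00174). Without WT replicate 2 neither passed (adjusted p = 0.14 and 0.0623). Against the LOF line, where that library plays no part beyond the shared dispersion, the GOF mean was 48.9% lower (log2 -0.97 ± 0.15, adjusted p = 1.32e-05), and no left-out library ended this call.

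GPC4 gave 28.6, 25.4 and 23.6 CPM in WT, 20.6, 17.3 and 18.02 in Y641F, 18.3, 16.6 and 18.9 in A677G and 22.9, 24.4 and 22.99 in the LOF line. All GOF libraries were below all libraries of WT and of the LOF line. The fall was 27.9% in Y641F (log2 -0.47 ± 0.08, adjusted p = 4.74e-05) and 30.7% in A677G (log2 -0.53 ± 0.08, adjusted p = 8.22e-06), and no left-out library ended either call. GPC1 was lower by smaller amounts, -0.39 and -0.29 on the log2 scale. SDC1, the main syndecan of epithelial cells, was lower in A677G (-0.33, adjusted p = 0.0173) and was at -0.16 in Y641F and 0.26 in the LOF line; its GOF mean was lower than the LOF line by -0.51 (adjusted p = 6.96e-06). SDC4 passed for the GOF mean against the LOF line (-0.33, adjusted p = 0.00188). GPC1, SDC1 and SDC4 were named after their values were seen.

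GPC3, an oncofetal glypican, gave 33.3, 30.8 and 31.4 CPM in WT, 37.2, 36.9 and 38.7 in Y641F, 39.6, 35.8 and 35.95 in A677G and 39.1, 36.2 and 36.7 in the LOF line. Every library of the 3 mutant lines was above every WT library. It rose in Y641F (log2 0.24 ± 0.06, adjusted p = 0.0054) and in A677G (log2 0.22 ± 0.06, adjusted p = 0.00905), the second call ending without WT replicate 2 (adjusted p = 0.069) or A677G replicate 1 (adjusted p = 0.115). In the LOF line the value was 0.23 ± 0.06 (adjusted p = 0.0815), which DESeq2 and the exact test called higher, and the GOF mean differed from the LOF line by 0.00 ± 0.05 with an interval of -0.10 to 0.10. GPC6 rose in A677G (log2 0.21 ± 0.05, adjusted p = 0.00729), from 47.5 ± 2.67 to 54.9 ± 1.51 CPM; the call ended without WT replicate 3 (adjusted p = 0.0776) or A677G replicate 3 (adjusted p = 0.0502). SDC2 had the highest level per length of the core proteins, 17.1 CPM per kilobase, and was at 0.01 in Y641F and -0.01 in A677G. GPC5 and GPC6 are neighbours on chromosome 13, at chr13:91398621-92873682 and chr13:93226807-94408020, both on the plus strand. Their windows (chr13:91398371-91398670, plus strand, and chr13:93226557-93226856, plus strand) held 33 and 6 CG, numbers reached by 19.8% and 67.5% of all promoters.
GPC5: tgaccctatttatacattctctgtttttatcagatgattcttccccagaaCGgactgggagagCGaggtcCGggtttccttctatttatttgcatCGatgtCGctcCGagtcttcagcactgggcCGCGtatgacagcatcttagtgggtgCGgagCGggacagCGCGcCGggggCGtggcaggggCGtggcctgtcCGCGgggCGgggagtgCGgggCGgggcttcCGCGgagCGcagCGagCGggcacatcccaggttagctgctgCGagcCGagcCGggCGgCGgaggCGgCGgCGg
GPC6: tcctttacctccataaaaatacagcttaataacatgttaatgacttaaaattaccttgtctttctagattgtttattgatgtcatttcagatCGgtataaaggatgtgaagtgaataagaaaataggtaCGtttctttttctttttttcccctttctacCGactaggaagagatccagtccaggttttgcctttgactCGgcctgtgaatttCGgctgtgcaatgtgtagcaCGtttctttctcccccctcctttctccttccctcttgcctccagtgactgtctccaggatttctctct

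Sialyltransferases cap glycans with sialic acid. Of 10 tested, 2 were lower in Y641F (5.59% over all genes), 3 in A677G (6.48%) and 1 in the LOF line (0.161%). The GOF mean was lower than the LOF line for 3 (8.75% over all genes). ST6GAL2, which adds α2,6-linked sialic acid to lactosamine, was lower in every mutant line than in WT. It had 20, 33 and 22 counts in WT, 6, 4 and 4 in Y641F, 10, 2 and 10 in A677G and 6, 6 and 2 in the LOF line. No mutant library reached the lowest WT library, and 11 of the 12 counts were even. Its log2 fold changes were -2.56 ± 0.51 in Y641F (adjusted p = 0.000654), -1.91 ± 0.47 in A677G (adjusted p = 0.00557) and -2.39 ± 0.51 in the LOF line (adjusted p = 0.0216).

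In Y641F the call of ST6GAL2 held without any single library. In A677G it ended without WT replicate 2 (adjusted p = 0.0527) or A677G replicate 2 (adjusted p = 0.0584). In the LOF line it ended without any 1 of the 6 libraries compared, with adjusted p from 0.0551 (without WT replicate 1) to 0.159 (without WT replicate 2). The GOF mean differed from the LOF line by 0.16 ± 0.58 (adjusted p = 0.913), with a wide interval of -1.01 to 1.33.

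ST8SIA4, a polysialyltransferase that acts on the neural cell adhesion molecule, showed another order of the lines. It gave 5.304, 7.12 and 5.4001 CPM in WT, 3.92, 4.097 and 3.97 in Y641F, 3.5001, 3.59 and 3.51 in A677G and 5.195, 4.99 and 5.28 in the LOF line. The 6 GOF libraries were the 6 lowest. In log2 units it was -0.57 ± 0.14 in Y641F (adjusted p = 0.00588) and -0.75 ± 0.14 in A677G (adjusted p = 0.000276), and the GOF mean was below the LOF line by -0.45 ± 0.12 (adjusted p = 0.00869). Without WT replicate 2 the Y641F call ended (adjusted p = 0.117). ST3GAL1, which sialylates the core of mucin-type O-glycans, was lower in A677G (-0.26, adjusted p = 0.0298). ST6GAL1 and ST3GAL5, which makes the ganglioside GM3, were lower in the GOF mean than in the LOF line (-0.26 and -0.32), and the last 3 genes were named after their values were seen. ST3GAL2 had the highest level per length of the list (4.92 CPM per kilobase) and was at -0.03 in Y641F and 0.10 in A677G.

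The chondroitin and dermatan sulfate enzymes had 3 of 14 lower in Y641F (5.59% over all genes). In A677G, 2 were lower (6.48%) and 1 higher (2.07%), and 1 was lower in the LOF line (0.161%). Against the LOF line the GOF mean was lower for 2, CHST15 and CHSY3, and higher for 1, CHPF. The shares over all genes in that comparison were 8.75% and 3.81%. DSEL, an epimerase that converts glucuronic to iduronic acid and so turns chondroitin into dermatan sulfate, gave 5.22, 5.93 and 4.46 CPM in WT, 1.74, 2.18 and 2.34 in Y641F, 3.05, 2.56 and 2.496 in A677G and 3.003, 3.26 and 2.54 in the LOF line. As with ST6GAL2, all libraries of the 3 mutant lines were below all WT libraries. The fall was 60.003% in Y641F (log2 -1.32 ± 0.18, adjusted p = 1.3e-06), 48.05% in A677G (log2 -0.94 ± 0.17, adjusted p = 0.000172) and 43.5% in the LOF line (log2 -0.82 ± 0.17, adjusted p = 0.0164).

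The GOF calls of DSEL held without any single library. The LOF call ended without WT replicate 1 (adjusted p = 0.096), WT replicate 2 (0.176), LOF replicate 1 (0.112) or LOF replicate 3 (0.118). The mean of the GOF lines was at -0.31 ± 0.16 from the LOF line (adjusted p = 0.222), with an interval of -0.63 to 0.01. The gene lies at chr18:67506587-67516720 on the minus strand. Its window (chr18:67516671-67516970, minus strand) held 41 CG, a number reached by 8.06% of all promoters.
DSEL: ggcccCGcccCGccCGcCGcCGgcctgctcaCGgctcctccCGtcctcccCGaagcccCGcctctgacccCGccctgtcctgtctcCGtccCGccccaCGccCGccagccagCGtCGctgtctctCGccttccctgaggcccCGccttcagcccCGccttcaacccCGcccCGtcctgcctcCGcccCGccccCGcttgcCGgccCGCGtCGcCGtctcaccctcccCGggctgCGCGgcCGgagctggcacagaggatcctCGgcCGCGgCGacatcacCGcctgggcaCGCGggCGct

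CHST15, which makes the disulfated units of chondroitin sulfate E, was lower in Y641F (-0.39, adjusted p = 0.000658) and A677G (-0.31, adjusted p = 0.00644) and was at 0.01 in the LOF line. CHST3, a chondroitin 6-O-sulfotransferase, was lower in Y641F (-0.20, adjusted p = 0.0483). CHST15, CHST3 and CHSY3 were named after their values were seen. CHST14, the sulfotransferase that follows the epimerase on dermatan sulfate, rose in A677G (log2 0.24 ± 0.07, adjusted p = 0.0325) and was at -0.05 ± 0.08 in Y641F; the difference between these lines was -0.29 ± 0.07 (adjusted p = 0.156). The rise ended without WT replicate 1 or 3 or any 1 A677G library (adjusted p from 0.0578 to 0.145, the last without WT replicate 3) and with upper-quartile scaling. CHPF, a chondroitin polymerizing factor and the gene of this list with the highest level per length (13.97 CPM per kilobase), was higher in the GOF mean than in the LOF line (log2 0.15 ± 0.04, adjusted p = 0.0212). Without LOF replicate 1 or 2 this did not pass (adjusted p = 0.0995 and 0.0648).

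Of 9 enzymes tested that modify heparan sulfate, 1 was lower (5.59% over all genes) and 1 higher (2.09%) in Y641F. In A677G, 2 were lower (6.48%) and 1 higher (2.07%). In a list of 9, these counts cannot be set apart from those shares. HS6ST3, a heparan sulfate 6-O-sulfotransferase, gave 7.71, 7.27 and 7.06 CPM in WT, 3.92, 3.39 and 3.71 in Y641F, 4.5995, 4.55 and 3.78 in A677G and 4.79, 5.91 and 6.36 in the LOF line. The lines fell in the order WT, LOF, A677G and Y641F, with the GOF lines overlapping. The log2 fold change was -0.998 ± 0.14 in Y641F (adjusted p = 2.29e-06), -0.77 ± 0.13 in A677G (adjusted p = 0.000117) and -0.37 ± 0.13 in the LOF line (adjusted p = 0.367, interval -0.64 to -0.10). The GOF mean was 29.8% below the LOF line (log2 -0.51 ± 0.12, adjusted p = 0.00232). The related HS6ST1 was lower in A677G by -0.20 (adjusted p = 0.00907, named after its value was seen), while HS6ST2, the enzyme of the list with the highest level per length (17.8 CPM per kilobase), was at 0.06 in Y641F and 0.09 in A677G. HS6ST3 stood at 0.861 CPM per kilobase in WT.

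HS2ST1, which 2-O-sulfates the uronic acid of heparan sulfate, rose. It gave 127, 127 and 135 CPM in WT, 142, 150.2 and 154 in Y641F, 146, 140.3 and 146 in A677G and 131, 134 and 133 in the LOF line. All GOF libraries were above all others. The rise was 14.9% in Y641F (log2 0.20 ± 0.04, adjusted p = 0.000589) and 11.3% in A677G (log2 0.16 ± 0.04, adjusted p = 0.00769), and 10.2% for the GOF mean over the LOF line (log2 0.14 ± 0.03, adjusted p = 0.00371). The A677G call ended without WT replicate 1 (adjusted p = 0.0644), WT replicate 2 (0.0564) or A677G replicate 1 (0.0551). Its window (chr1:86914385-86914684, plus strand) held 33 CG, as many as that of GPC5, which fell.
HS2ST1: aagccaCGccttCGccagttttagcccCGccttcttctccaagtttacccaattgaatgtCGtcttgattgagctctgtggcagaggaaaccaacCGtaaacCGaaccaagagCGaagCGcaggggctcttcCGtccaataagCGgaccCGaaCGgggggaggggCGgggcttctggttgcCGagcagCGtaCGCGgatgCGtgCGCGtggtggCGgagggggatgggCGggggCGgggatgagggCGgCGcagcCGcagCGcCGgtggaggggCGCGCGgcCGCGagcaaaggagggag

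**Figure D2:**
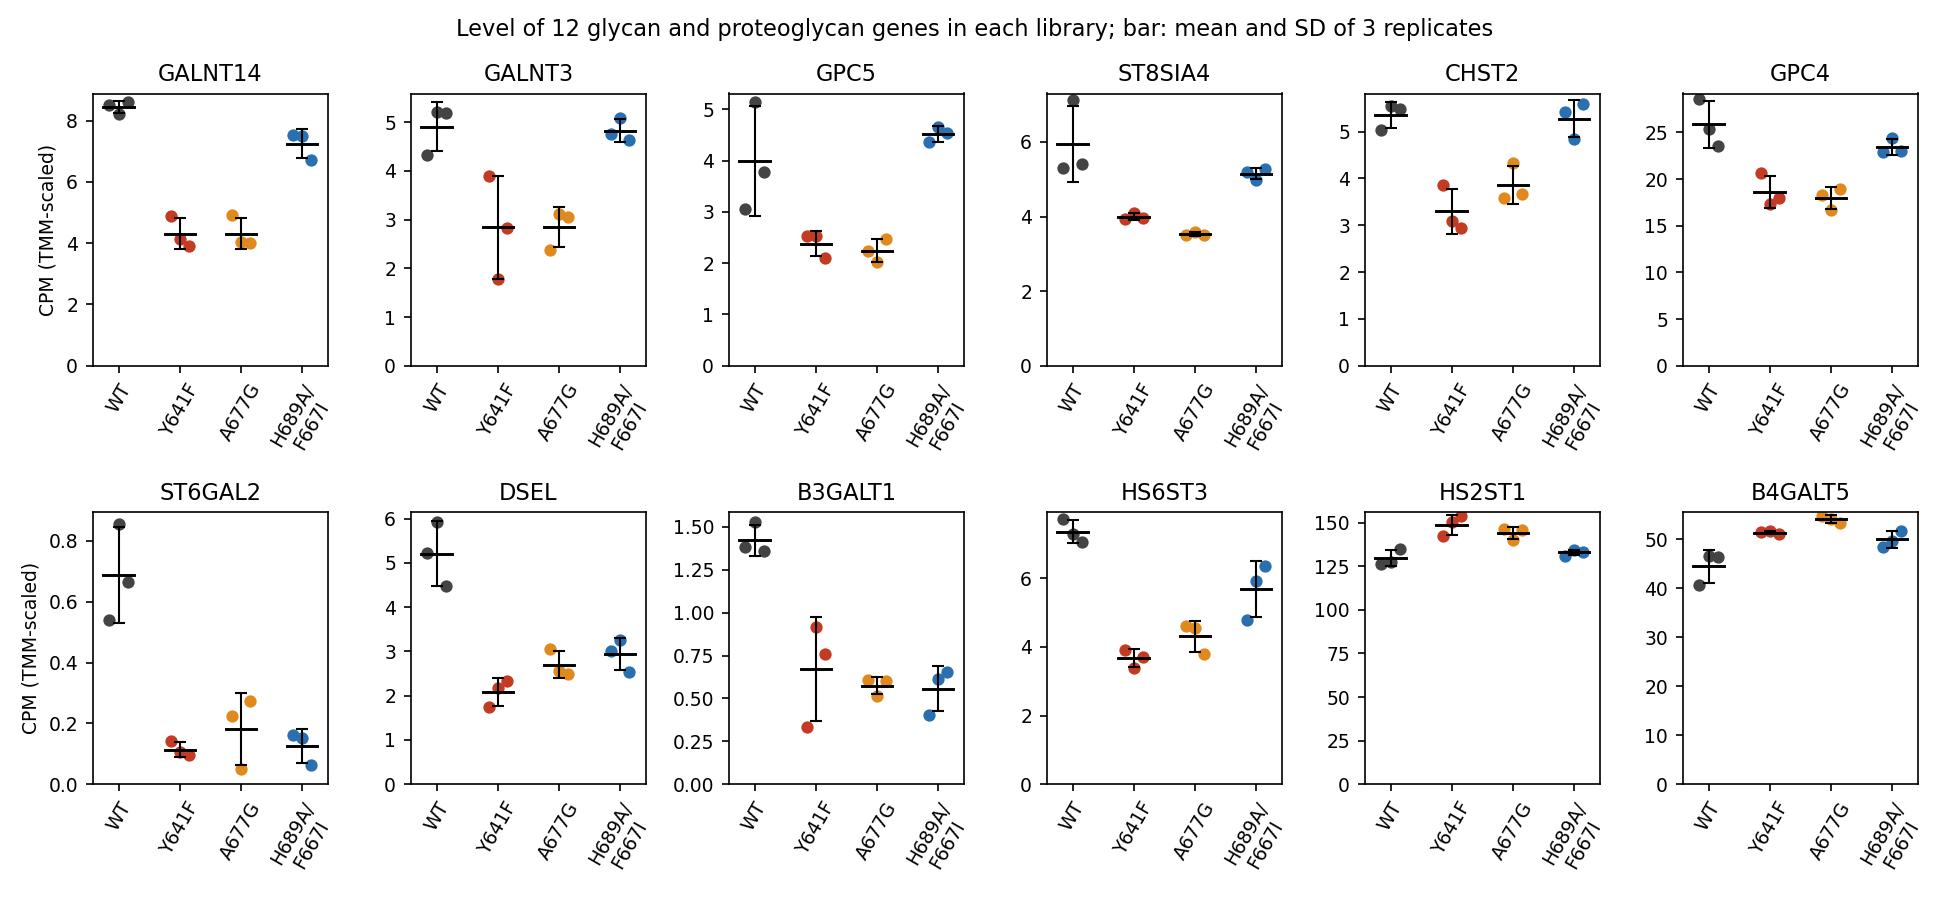
CPM scaled by TMM factors (vertical axes from 0, a scale for each gene) of 12 members in the 3 replicates of each line, with the mean and SD as black bars. GALNT14, GALNT3, GPC5, ST8SIA4, CHST2 and GPC4 were low in both GOF lines, ST6GAL2, DSEL and B3GALT1 were low in all 3 mutant lines, HS2ST1 was raised in the GOF lines, and the B4GALT5 libraries of all 3 mutant lines lay above those of WT.

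Of the remaining heparan sulfate genes, NDST4, an N-deacetylase and N-sulfotransferase named after its values were seen, had 44, 34 and 35 counts in WT, 57, 37 and 42 in Y641F, 22, 26 and 16 in A677G and 20, 52 and 32 in the LOF line. Its log2 fold change was -0.98 ± 0.34 in A677G (adjusted p = 0.0633; edgeR's exact test called it lower), 0.09 ± 0.31 in Y641F and -0.12 ± 0.32 in the LOF line. HS3ST6, with 16, 6 and 10 counts in WT and 20, 20 and 8 in Y641F, had 0 counts in all 6 libraries of A677G and the LOF line. No fold is given for it. Genes at 0 in all replicates of a line were found in A677G (134) and in the LOF line (100) and numbered 0 in WT and in Y641F, and the step behind this is not given in the sources used here, so that absent transcripts and the making of the table cannot be told apart for HS3ST6. The EXT and EXTL polymerases had 0 of 5 called in Y641F and in A677G, with 0 also at an unadjusted p and by DESeq2. Over all genes, 5.59% were lower and 2.09% higher in Y641F, and 6.48% and 2.07% in A677G. With 5 genes, 0 calls cannot be told apart from those shares. The log2 fold changes of the 5 were -0.03 to 0.49 and -0.01 to 0.19. EXTL3 was higher in the GOF mean than in the LOF line (0.19, adjusted p = 0.000288, named after its value was seen), and EXTL2, with the highest level per length of the list (8.57 CPM per kilobase), was at -0.06. Of the 4 linker enzymes, XYLT1, a xylosyltransferase that attaches the first sugar of heparan and chondroitin sulfate chains, was lower in Y641F (-0.48, adjusted p = 0.00401) and A677G (-0.48, adjusted p = 0.00339; named after its values were seen). Its paralog XYLT2 was at 0.04 in Y641F and 0.06 in A677G, and B3GALT6, the linker enzyme with the highest level per length (21.4 CPM per kilobase), at -0.10 and -0.12.

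Among 21 enzymes of lactosamine and glycolipid chains, 3 were lower (5.59% over all genes) and 1 higher (2.09%) in Y641F. In A677G, 5 were lower (6.48%) and 1 higher (2.07%). B3GALT1, a β1,3-galactosyltransferase of type 1 chains, gave 1.38, 1.53 and 1.36 CPM in WT, 0.333, 0.919 and 0.757 in Y641F, 0.606, 0.516 and 0.603 in A677G and 0.406, 0.611 and 0.652 in the LOF line. These came from 45 to 59 counts in WT, 14 to 35 in Y641F, 21 to 27 in A677G and 15 to 24 in the LOF line. All mutant libraries were below all WT libraries. On the log2 scale the change was -1.09 ± 0.32 in Y641F (adjusted p = 0.0251), -1.30 ± 0.32 in A677G (adjusted p = 0.00645) and -1.36 ± 0.33 in the LOF line (adjusted p = 0.0624). DESeq2 and the exact test called the last of these lower. The Y641F call ended without WT replicate 1 (adjusted p = 0.0654), WT replicate 2 (0.103) or Y641F replicate 1 (0.149). The GOF mean differed from the LOF line by 0.16 ± 0.32, with an interval of -0.48 to 0.80.

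B4GALNT1, the GM2/GD2 synthase that commits gangliosides to their complex forms, went from 7.28 ± 0.675 CPM in WT to 4.55 ± 0.661 in Y641F, 5.07 ± 0.348 in A677G and 6.46 ± 0.214 in the LOF line (SD, n = 3). The GOF libraries did not overlap with the others. The fall was -0.68 ± 0.13 (adjusted p = 0.000417) and -0.52 ± 0.13 (adjusted p = 0.00594) on the log2 scale, the second ending without WT replicate 1 (adjusted p = 0.0573). The mean of the GOF lines was below the LOF line by -0.43 ± 0.11 (adjusted p = 0.00736). B4GALNT4, B3GALNT1, B3GNT5 and A4GALT, the globotriaosylceramide synthase, were each called lower in at least 1 of the GOF comparisons, with log2 fold changes of -0.49 to -0.18 in Y641F and -0.53 to -0.24 in A677G, and were named after their values were seen.

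B3GNT7, which extends keratan sulfate chains, had 28, 16 and 20 counts in WT, 16, 14 and 20 in Y641F, 8, 10 and 10 in A677G and 28, 24 and 12 in the LOF line, all of them even. It was lower in A677G (log2 -1.34 ± 0.42, adjusted p = 0.0401), but the call ended with DESeq2 (adjusted p = 0.0536), with the replicate block (adjusted p = 0.051, or 0.0524 with the GC trend removed as well) and without any of 5 single libraries, WT replicate 1 or 3 or any 1 of A677G (adjusted p up to 0.208, without WT replicate 1). B4GALT5, a lactosylceramide synthase, rose in both GOF lines. It gave 40.6, 46.6 and 46.3 CPM in WT, 51.4, 51.7 and 50.98 in Y641F, 54.7, 54.2 and 53.2 in A677G and 48.4, 49.7 and 51.7 in the LOF line. Its log2 fold changes were 0.21 ± 0.05 in Y641F (adjusted p = 0.00818), 0.28 ± 0.05 in A677G (adjusted p = 0.000214) and 0.17 ± 0.05 in the LOF line (adjusted p = 0.269), and the Y641F call ended without WT replicate 1 (adjusted p = 0.133), which was the lowest of the WT libraries. All libraries of the LOF line also lay above those of WT, and the GOF mean was not separated from the LOF line (0.08 ± 0.04, interval -0.01 to 0.17). B4GALT3 had the highest level per length of the list (17.1 CPM per kilobase) and was at -0.11 in Y641F and -0.05 in A677G.

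Of 6 other carbohydrate sulfotransferases, 2 were lower in Y641F (5.59% over all genes) and 1 in A677G (6.48%). CHST2, an N-acetylglucosamine 6-O-sulfotransferase known for selectin ligands, gave 5.03, 5.54 and 5.49 CPM in WT, 3.85, 3.099 and 2.93 in Y641F, 3.59, 4.32 and 3.67 in A677G and 5.41, 4.84 and 5.59 in the LOF line. All GOF libraries were below those of WT and the LOF line. In log2 units it was -0.70 ± 0.15 in Y641F (adjusted p = 0.00132), -0.47 ± 0.14 in A677G (adjusted p = 0.0332) and -0.56 ± 0.12 for the GOF mean against the LOF line (adjusted p = 0.00142). The A677G call ended without any 1 of 5 of its 6 libraries (adjusted p from 0.0548 without WT replicate 1 to 0.15 without A677G replicate 1) and held without A677G replicate 2. CHST2 lies at chr3:143119771-143124014 on the plus strand, and its window (chr3:143119521-143119820, plus strand) held 51 CG, a number reached by 1.24% of all promoters.
CHST2: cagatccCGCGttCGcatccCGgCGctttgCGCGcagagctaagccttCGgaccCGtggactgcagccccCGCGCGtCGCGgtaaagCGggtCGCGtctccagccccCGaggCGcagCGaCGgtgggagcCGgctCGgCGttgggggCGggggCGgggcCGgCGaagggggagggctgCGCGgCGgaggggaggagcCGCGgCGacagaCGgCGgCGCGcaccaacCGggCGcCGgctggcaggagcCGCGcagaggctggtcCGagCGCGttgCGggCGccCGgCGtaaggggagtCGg

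CHST4, a related enzyme with 42, 26 and 22 counts in WT, 18, 4 and 12 in Y641F, 25, 10 and 28 in A677G and 34, 29 and 16 in the LOF line, was lower in Y641F (log2 -1.57 ± 0.44, adjusted p = 0.0184). This ended without WT replicate 1 (adjusted p = 0.16), Y641F replicate 2 (0.104) or Y641F replicate 3 (0.0531). CHST9 was lower in the GOF mean than in the LOF line (-0.85, adjusted p = 0.00228, named after its value was seen). CHST10, which makes the HNK-1 epitope and had the highest level per length of the list (7.399 CPM per kilobase), was at -0.05 in Y641F and -0.13 in A677G.

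N-glycan branching enzymes had 1 of 8 lower (5.59% over all genes) and 1 higher (2.09%) in Y641F, and 1 lower (6.48%) in A677G. In a list of 8, these counts cannot be set apart from those shares. MGAT3, which adds the bisecting N-acetylglucosamine, was the lower one in both (log2 -0.31 and -0.34, adjusted p = 0.0319 and 0.0166; named after its values were seen) and was at 0.09 in the LOF line. FUT8, the only enzyme that adds core fucose to N-glycans, gave 29.5, 28.7 and 25.3 CPM in WT, 31.5, 32.2 and 33.8 in Y641F, 30.4, 30.4 and 29.9 in A677G and 28.5, 28.4 and 26.6 in the LOF line. It rose in Y641F (log2 0.22 ± 0.06, adjusted p = 0.0205) and was at 0.12 ± 0.06 in A677G (adjusted p = 0.293). The rise ended without WT replicate 3 (adjusted p = 0.165) or Y641F replicate 3 (adjusted p = 0.103). MGAT2, with the highest level per length of the list (40.8 CPM per kilobase), was at -0.01 in Y641F and 0.04 in A677G. Of 3 fucosyltransferases, FUT4, which makes Lewis x, was lower in A677G (-0.31, adjusted p = 0.0243, named after its value was seen) and was at -0.26 in Y641F (adjusted p = 0.0794), and FUT10 had the highest level per length (3.35 CPM per kilobase).

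The member with the highest level per length in each of the 12 roles was read as a group of 12. Their log2 fold changes were -0.11 to 0.06 in Y641F, -0.13 to 0.13 in A677G and -0.16 to 0.11 in the LOF line. The edgeR test called 0 of the 12 in each of the 3 comparisons with WT, and DESeq2 and the exact test also called 0. With the GC trend removed, edgeR called CHPF higher in A677G (log2 0.15, adjusted p = 0.0335, or 0.0356 with the replicate block as well). Over all genes tested, 5.59% were lower and 2.09% higher in Y641F, and 6.48% and 2.07% in A677G. In the LOF line the shares were 0.161% and 0.14%. With 12 genes, 0 calls cannot be told apart from those shares. At an unadjusted p under 0.05, 1 was lower in Y641F, 2 were lower and 2 higher in A677G, and 1 was lower and 1 higher in the LOF line. For the GOF mean against the LOF line they ran from -0.11 to 0.15, with CHPF called higher. SDC2, at -0.11, was called lower there by DESeq2 (adjusted p = 0.0441) and under 4 of the other settings.

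The members that changed most against WT were sorted by whether the GOF mean was called lower than the LOF line, with the values given above. GALNT14, GALNT3, GALNT5, GPC5, GPC4, ST8SIA4, CHST2, B4GALNT1 and HS6ST3 were called lower in the GOF mean than in the LOF line, by -0.36 to -1.38 on the log2 scale. ST6GAL2, DSEL and B3GALT1 were not, with differences of 0.16, -0.31 and 0.16, and their levels in the LOF line were 80.9%, 43.5% and 60.9% below WT. The intervals of ST6GAL2 and B3GALT1 are wide, so a GOF difference from the LOF line of the size seen for GALNT3 is outside the interval of B3GALT1 and inside that of ST6GAL2. The interval of DSEL holds the differences of GPC4 (-0.36), B4GALNT1 (-0.43), ST8SIA4 (-0.45), HS6ST3 (-0.51) and CHST2 (-0.56). The sorting therefore does not show that these genes behaved differently from DSEL. HS6ST3 was itself at -0.37 in the LOF line against WT. CHST4 and B3GNT7, each at -0.93, were also not called.

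**Figure D3:**
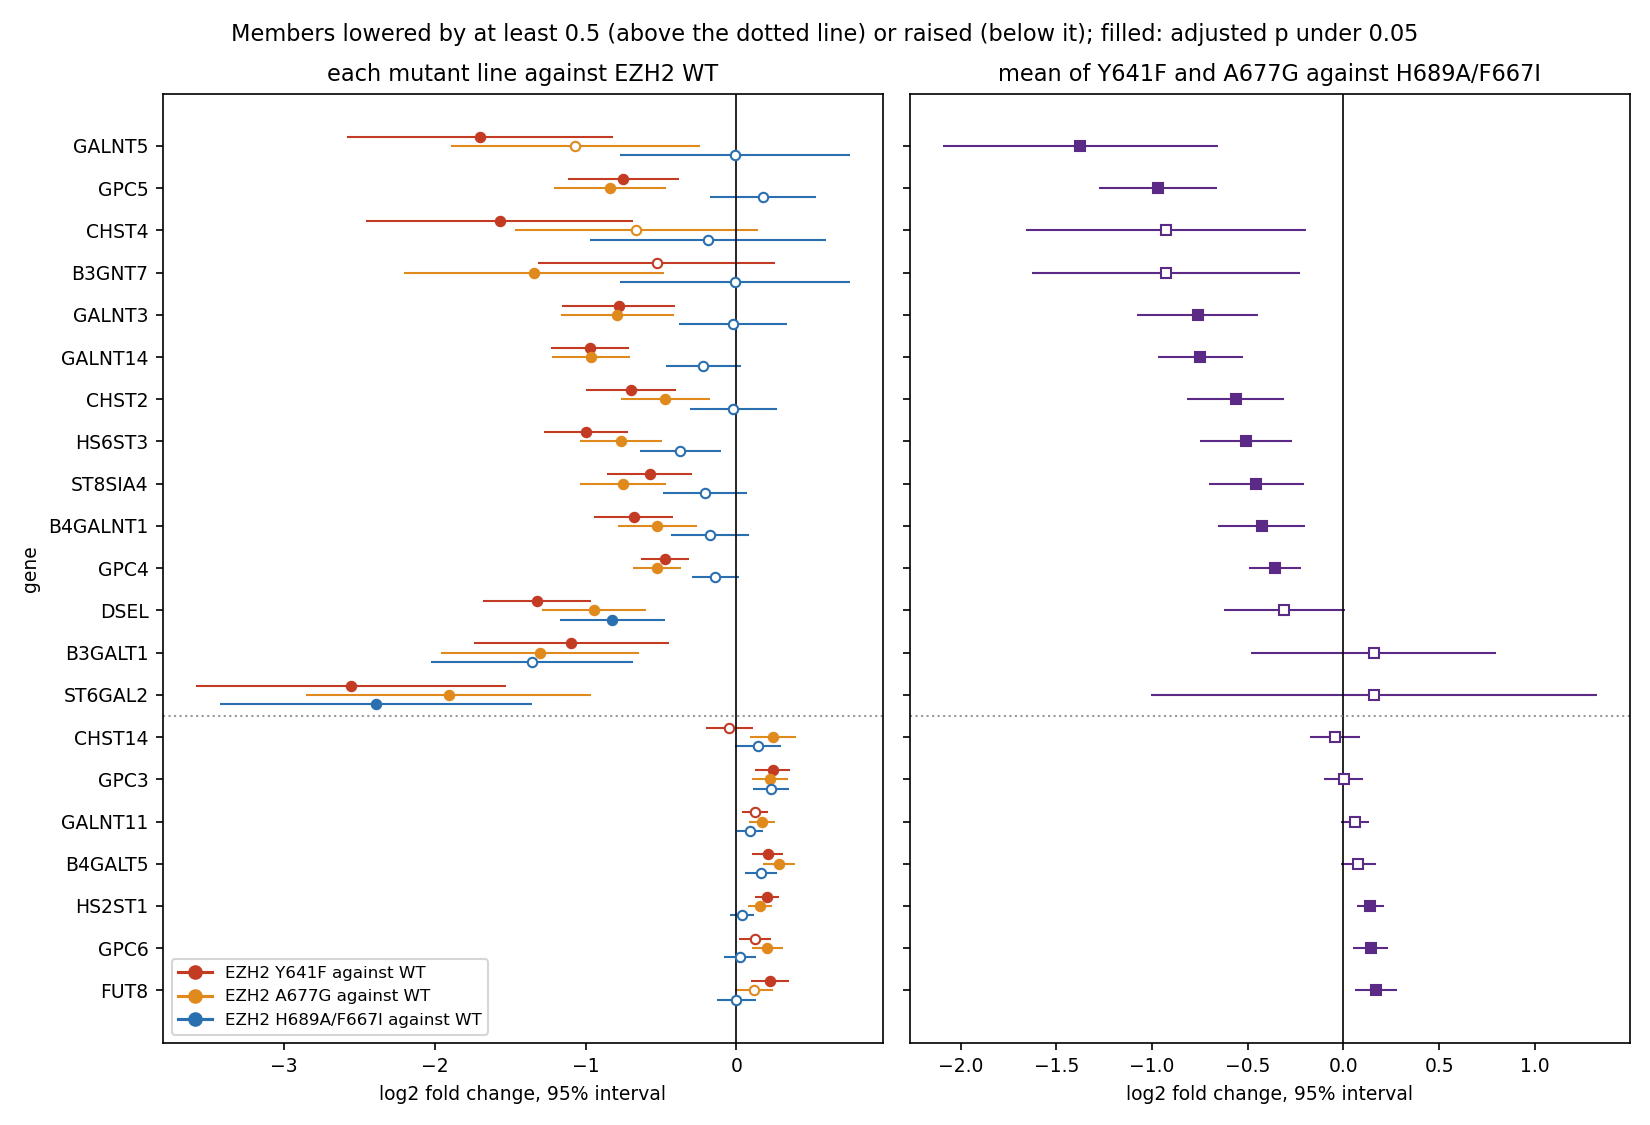
Log2 fold change with 95% intervals (horizontal axes) of the 14 members with a called change of at least 0.5 (above the dotted line) and the 7 members called higher (below it). The left panel gives each mutant line against WT and the right panel the GOF mean against the LOF line; filled symbols had an adjusted p under 0.05. Of the lowered genes, GALNT5 to GPC4 sit left of 0 on the right, with CHST4 and B3GNT7 not called, while DSEL, B3GALT1 and ST6GAL2 have intervals that reach 0.

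The level in each library relative to WT is plotted for all members called against WT, 37 in number.

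**Figure D4:**
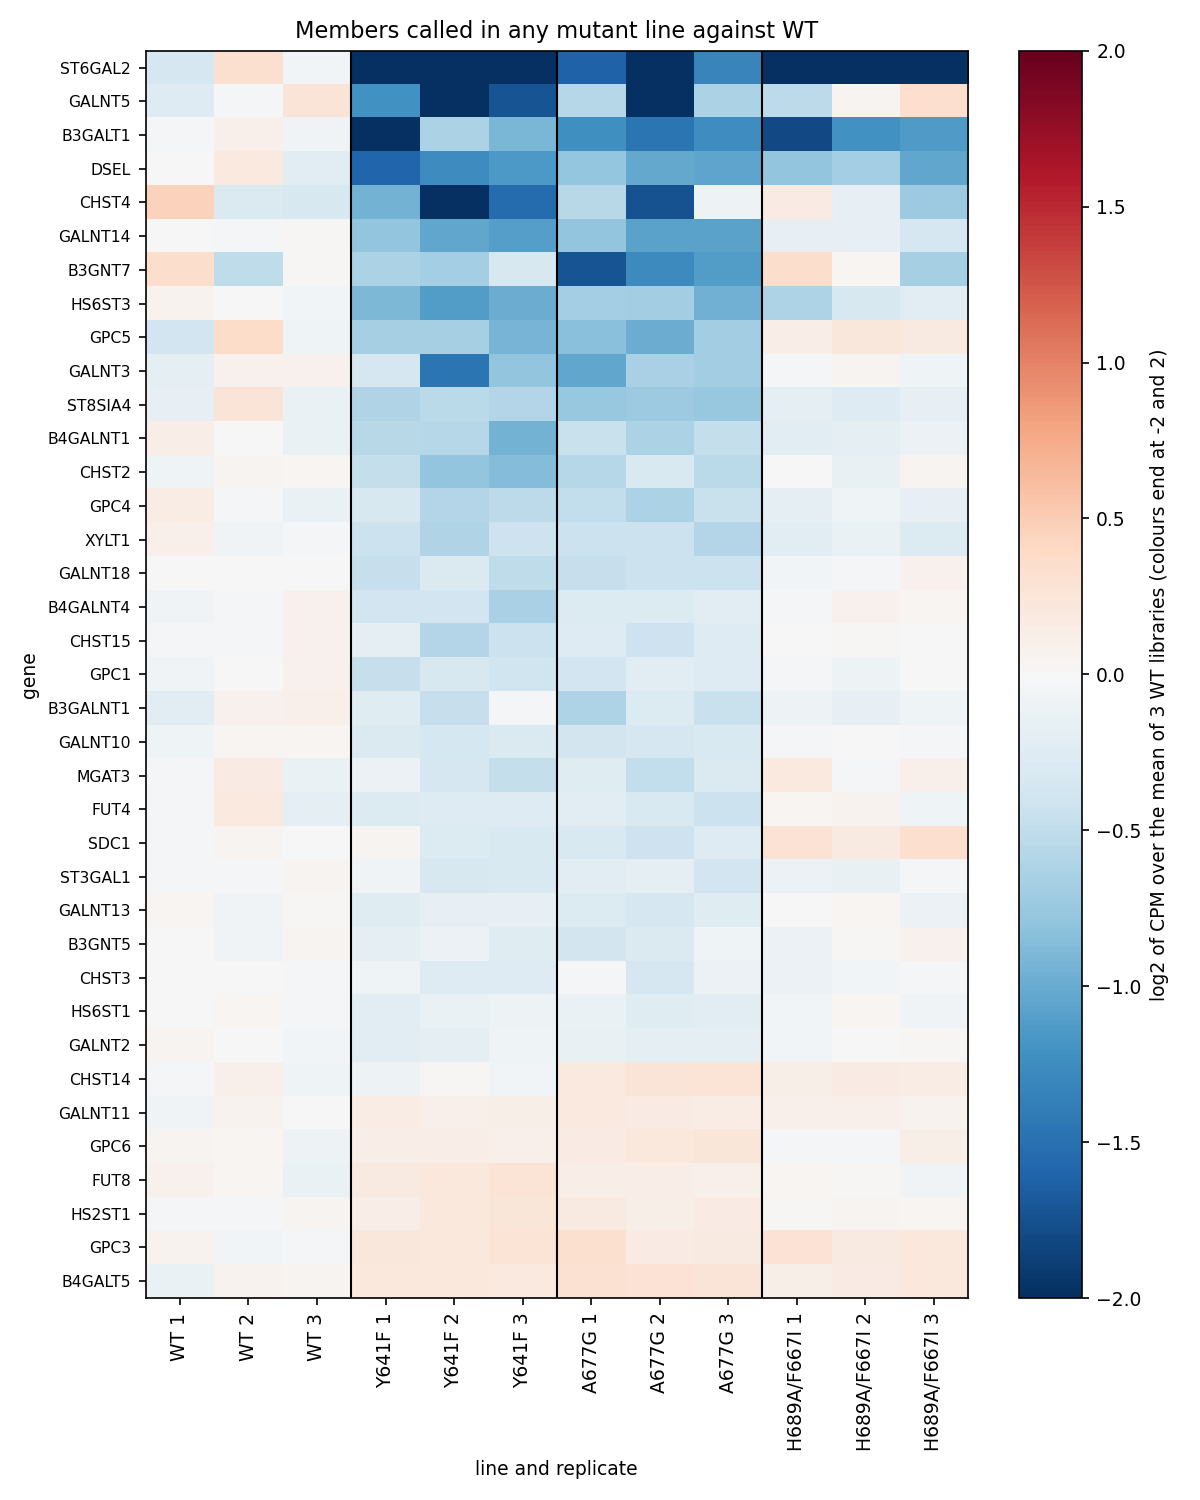
Level of the 37 members called in any mutant line against WT (rows) in each of the 12 libraries (columns), as log2 of the CPM over the mean of the 3 WT libraries, with blue lower and red higher. Rows run from the most lowered to the most raised; ST6GAL2, B3GALT1 and DSEL are blue in all 9 mutant libraries, while GALNT14, GPC5, GALNT3 and CHST2 are blue in the 6 GOF libraries and pale in the LOF columns. GALNT5, CHST4 and B3GNT7 are uneven between replicates.

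The promoter windows of lowered, raised and uncalled members held similar median numbers of CG. Of the 107 members tested, 83 had a RefSeq promoter window. The median was 33 CG per window in the 25 with a lower call in a GOF line, 34 in the 52 without a call and 32.5 in the 6 with a higher call. It was 29 over 10435 genes tested and 16 over all 27305 genes with a window, each by its window with the most CG. The lowered members ran from 5 to 51 CG and the raised ones from 2 to 47. The windows printed above run from 6 in GPC6 to 51 in CHST2, and those of CHST4 (5) and GALNT11 (2) are not printed. CG counts describe these windows alone. The study also mapped H3K27me3 by CUT&Tag and open chromatin by ATAC-Seq in the EZH2 mutants, and those data were not used here.

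**Figure D5:**
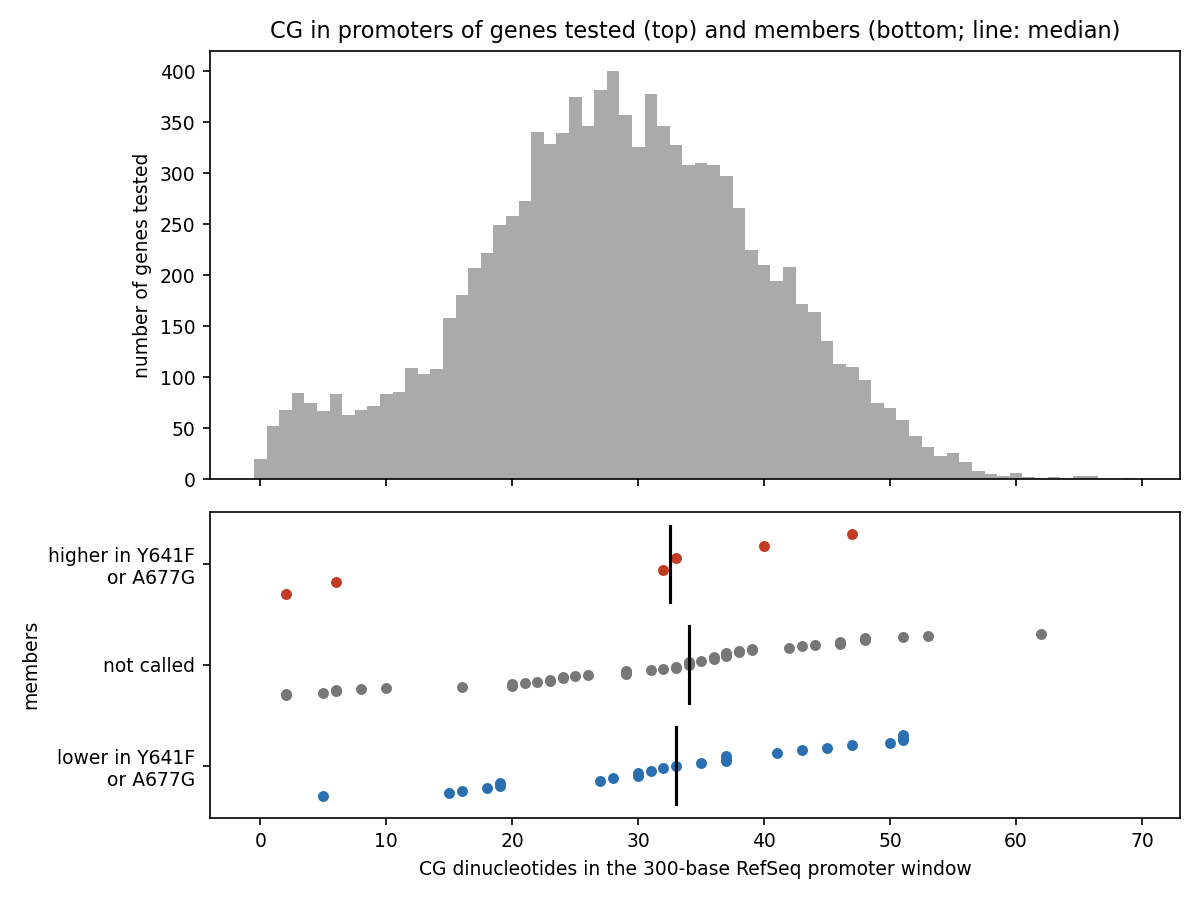
Number of CG dinucleotides in the 300-base promoter window (horizontal axis) for all genes tested (upper panel, number of genes) and for each member (lower panel, 1 point a gene, with a black line at the median). The medians of the lowered, uncalled and raised members, 33, 34 and 32.5, lie close together.

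Related genes outside the chosen families were read from lists of the same pathways. Of 93 listed genes, 78 were tested, with 7 lower and 5 higher in Y641F (8.97% and 6.41% of them), 6 lower and 5 higher in A677G (7.69% and 6.41%), and 12 lower and 3 higher in the GOF mean against the LOF line (15.4% and 3.85%). Over all genes tested the shares were 5.59% and 2.09%, 6.48% and 2.07%, and 8.75% and 3.81%, so that the shares of lower genes in A677G and of higher genes in the GOF mean were close to those over all genes. For the LOF line edgeR, DESeq2 and the exact test each called 0, and 2 were lower and 4 higher at an unadjusted p under 0.05. Log2 fold changes in the LOF line ran from -0.40 to 0.79. Of 8 genes tested from a list that took the ST6GALNAC family as mucin-type, 2 were lower in Y641F (5.59% over all genes) and in A677G (6.48%). In a list of 8, these counts cannot be set apart from those shares. The 2 were ST6GALNAC5 and ST6GALNAC3, which add sialic acid to N-acetylgalactosamine. Their acceptors, on proteins or on glycolipids, were not measured. ST6GALNAC5 had log2 fold changes of -1.44 ± 0.28 in Y641F (adjusted p = 0.00059), -1.81 ± 0.29 in A677G (adjusted p = 3.62e-05) and -0.15 ± 0.26 in the LOF line. SULF2, a sulfatase that removes 6-O-sulfate from heparan sulfate outside the cell, was lower by -0.25 ± 0.05 in Y641F (adjusted p = 0.000985) and -0.25 ± 0.05 in A677G (adjusted p = 0.000935).

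Of 15 other proteoglycan core proteins tested, 4 were lower (5.59% over all genes) and 2 higher (2.09%) in Y641F. In A677G, 3 were lower (6.48%) and 2 higher (2.07%). PTPRZ1, a receptor phosphatase that carries chondroitin sulfate, had log2 fold changes of -1.53 ± 0.25 and -1.69 ± 0.26 in Y641F and A677G (adjusted p = 4.92e-05 and 1.23e-05) and 0.32 ± 0.22 in the LOF line. The testicans SPOCK3 and SPOCK1 were also lower in both GOF lines, and AGRN, the heparan sulfate proteoglycan agrin, was higher in both (0.25 ± 0.04 and 0.19 ± 0.04). The 22 genes of precursor supply, which make and transport the activated sugars and sulfate, had log2 fold changes of -0.30 to 0.24 in Y641F and -0.24 to 0.16 in A677G. In Y641F, 2 of them were higher (2.09% over all genes), UGDH and SLC35A3 (0.20 ± 0.05 and 0.24 ± 0.05). In A677G, 1 was higher (2.07%), GNE (0.16 ± 0.05). In these lines 0 were lower, against 5.59% and 6.48% over all genes. In a list of 22, these counts cannot be set apart from those shares. The genes of these lists were named after their values were seen.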

How the data were processed

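mRNA libraries (TruSeq Stranded mRNA) of 4 HEK293T lines were sequenced in 3 replicates each. Per the labels and the study's methods, reads were trimmed with Trim Galore 0.6.5, aligned to GRCh38 with STAR 2.7.9a, and quantified with Salmon 1.2.0 against a Gencode transcriptome. The deposited table holds raw counts for each gene symbol, in whole numbers and not normalized; the step from Salmon estimates to whole counts and the filter behind the 14438 genes are not given in the sources used here.

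Genes with 0 counts in all replicates of a line (175) were left out, and the other 14263 passed filterByExpr. The quasi-likelihood test of edgeR 4.0.16 (R 4.3.3) was run with TMM factors over the 12 libraries together, 1 coefficient a line, in place of the study's exact test, which was an alternative. P-values were adjusted by Benjamini-Hochberg over all genes tested, and calls had an adjusted p under 0.05. SE is the absolute log2 fold change over the square root of the F statistic. CPM are TMM-scaled, and CPM per kilobase uses the exon length of GENCODE genes on GRCh38. The 95% intervals and p-values cover the spread between replicates of 1 line.

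The members and lists were chosen with earlier results of these data known, as was the removal of genes at 0 in a line. Named were members called and changed by 0.5 or more on the log2 scale in EZH2 Y641F or EZH2 A677G, members called in EZH2 H689A/F667I or between the GOF lines, members called higher in a GOF line, and the member of each role with the most CPM per kilobase. Other names were added after their values were seen, as said beside them. Alternatives were the exact test, DESeq2 1.42.0, other scalings and filters, only the groups compared, a replicate block, removal of GC trends, and leaving out each library.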

Additional observations from a re-analysis of the deposited data

How the results depend on the processing

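The counts of lower and higher members in Y641F stayed within 1.5 times under every alternative run. They ran from 17 to 26 lower and from 3 to 5 higher when 1 library was left out. Without 1 library, the number of members lower in A677G ran from 17 to 27 and the number higher from 3 to 6, the number lower in the LOF line from 0 to 3, and the number higher in the GOF mean than in the LOF line from 2 to 6. In the LOF line, 4 members were lower with no filter, which kept the genes at 0 in a line. Over all genes, 139 of 14438 were lower and 30 higher in that run, against 23 and 20 of 14263 in the main one. With no filter, with DESeq2, with the exact test and with only the groups compared, 1 member was higher. Over all genes, 30, 30, 31 and 38 were higher in these runs. Upper-quartile factors gave 3 members higher in the GOF mean than in the LOF line. With no filter, 1 member was lower and 1 higher in Y641F than in A677G. Over all genes, 15 were lower and 163 higher in that run, against 2 and 10 in the main one. The cause of these shifts was not tested. The exact test could not be run on the GOF mean. Libraries with the same replicate number did not deviate together (r from -0.06 to 0.05 over 18 pairs), so the numbers do not pair the samples; with a replicate block, 22 members were lower and 4 higher in Y641F, and 25 lower and 6 higher in A677G. Over the 3 comparisons with WT, 961 of 978 values of named genes under other settings stayed on their side of the threshold, 13 came to pass and 4 no longer passed. Of 1188 values without 1 library, 50 no longer passed and 2 came to pass. For the GOF mean against the LOF line, 3 of 293 values under other settings no longer passed and 5 came to pass, and 13 of 396 without 1 library no longer passed and 4 came to pass; between the GOF lines, 1 of 322 under other settings came to pass. No called value turned direction. Low counts limit ST6GAL2, CHST4, B3GNT7, GALNT5 and B3GALT1.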
